A study of Mus musculus with 12 samples.

Results

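The genes described here are 46 genes of DNA replication and mitosis, in mouse dendritic cells of the spleen, out of 8251 gene symbols that the arrays named. They were chosen by name, as a list of replication, mitosis and cell-cycle control genes, and each was represented by its brightest probe set over the 12 arrays. The list holds 23 replication genes, 17 mitosis genes and 6 control genes. Of the 46, 41 had a probe set carrying their symbol alone; Tyms, Pole, Ccnb1, Cdc25b and Bub1b had none and are not analysed here. The cells were sorted for high CD11c and split into a CD4+, a CD8+ and a CD4- CD8- double-negative (DN) subset. RNA was taken either directly after isolation (fresh) or after 2 h in tissue culture medium at 37 °C (cultured), with 2 arrays in each of the 6 groups. No treatment or genotype sets the groups apart, and for strain, age and number of mice the sources used here say nothing. The labels do not tell whether replicates came from separate animals, so p-values measure the spread among these arrays only, and that spread may be technical. The comparisons ask how the subsets differ and what the culture period changes.

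Before a cell divides it copies its DNA once and then separates the copies. The MCM helicase opens the double strand at licensed origins, DNA polymerases with their primase and sliding clamp copy it, and ribonucleotide reductase and thymidine kinase supply the building blocks. In mitosis the kinase CDK1 with a B-type cyclin starts division, motor proteins and Aurora kinases build the spindle, and a checkpoint holds back the separation of chromosomes until all are attached. Replication genes are classic targets of E2F factors. Many mitosis genes carry a CHR element and CCAAT boxes, through which the DREAM complex and NF-Y act. Dendritic cells of the spleen are short-lived and are renewed from precursors, and a part of them divides in the tissue.

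All intensities are the deposited Average Difference values, on a linear scale and possibly below 0. A detection floor of 91.37 decided which probe sets were tested and where a fold was given only as a bound. Intensities under it entered the fits and medians as they were. A gene is called measured where it had a probe set, above the floor or not. The trimmed mean was 150.1 or 150.2 on every array. The noise (root mean square of negative values) was 26.2 to 50.5 on fresh and 42.3 to 107.9 on cultured arrays, highest on the first cultured CD4+ array. Probe sets below 0 made up 19.7 to 22.0% on fresh and 22.2 to 26.5% on cultured arrays. The part of this shift in the log2 differences was not tested. Rank correlations between replicates ran from 0.745 (cultured CD4+) to 0.94 (fresh CD4+). Gapdh control signals, whose 3'/5' ratio goes up as RNA degrades, gave 2.55 for the first fresh CD8+ array, 1.97 for the first cultured CD4+ array and 1.34 for the first cultured DN array. The remaining 9 arrays gave 0.89 to 1.04. The actin controls ranked the arrays otherwise. Their 3'/5' ratio was 0.908, 1.156 and 0.919 on these 3 arrays in the same order. It was 0.907 to 1.276 on the remaining 9, highest on replicate 2 of cultured CD4+ cells. Replicate 1 of fresh CD8+ cells is called CD4 positive in 1 label, and its summed markers of CD8+ dendritic cells (16017, with 14165 on replicate 2) went with the CD8+ labels. All 8 dendritic cell markers, Itgax (CD11c) and MHC class II genes among them, were above the floor on all 12 arrays. Of the 7 measured T cell markers only Lat was above it on any array. In bulk RNA, fewer dividing cells and less RNA per dividing cell cannot be told apart.

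Of the 41 measured genes, 31 were above the floor on at least 2 arrays and were tested. The other 10 (Mcm6, Lig1, Prim1, Prim2, Cdc45, Ccne2, Cdc25c, Bub1, Chek1 and E2f1) never exceeded 90.8 and carried no test. After culture, 26 of the 31 tested genes fell and 0 rose (limma, mean difference over the 3 subsets, adjusted p under 0.05). Over all 6159 probe sets tested, the same comparison called 22.3% lower and 17% higher. Of the tested replication genes 12 of 15 fell, of the mitosis genes 10 of 12, and of the control genes 4 of 4. Since a gene that is bright only in fresh cells enters the test through those arrays, the median was also taken over every measured gene, tested or not. It was -1.43 on the log2 scale for 21 replication genes and -1.51 for 14 mitosis genes, against -0.05 for all 12422 probe sets. With intensities under the floor raised to it, the medians were -0.72 and -0.79, against 0 for all probe sets and 0.017 for the 6159 tested. Probe sets not tested, which were not above the floor on at least 2 arrays, hold the value for all near 0. The sums of the B cell, progenitor and macrophage marker lists also ranged lower after culture, though not all their markers did, with values at the end, and their part in these results was not tested.

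**Figure D1:**
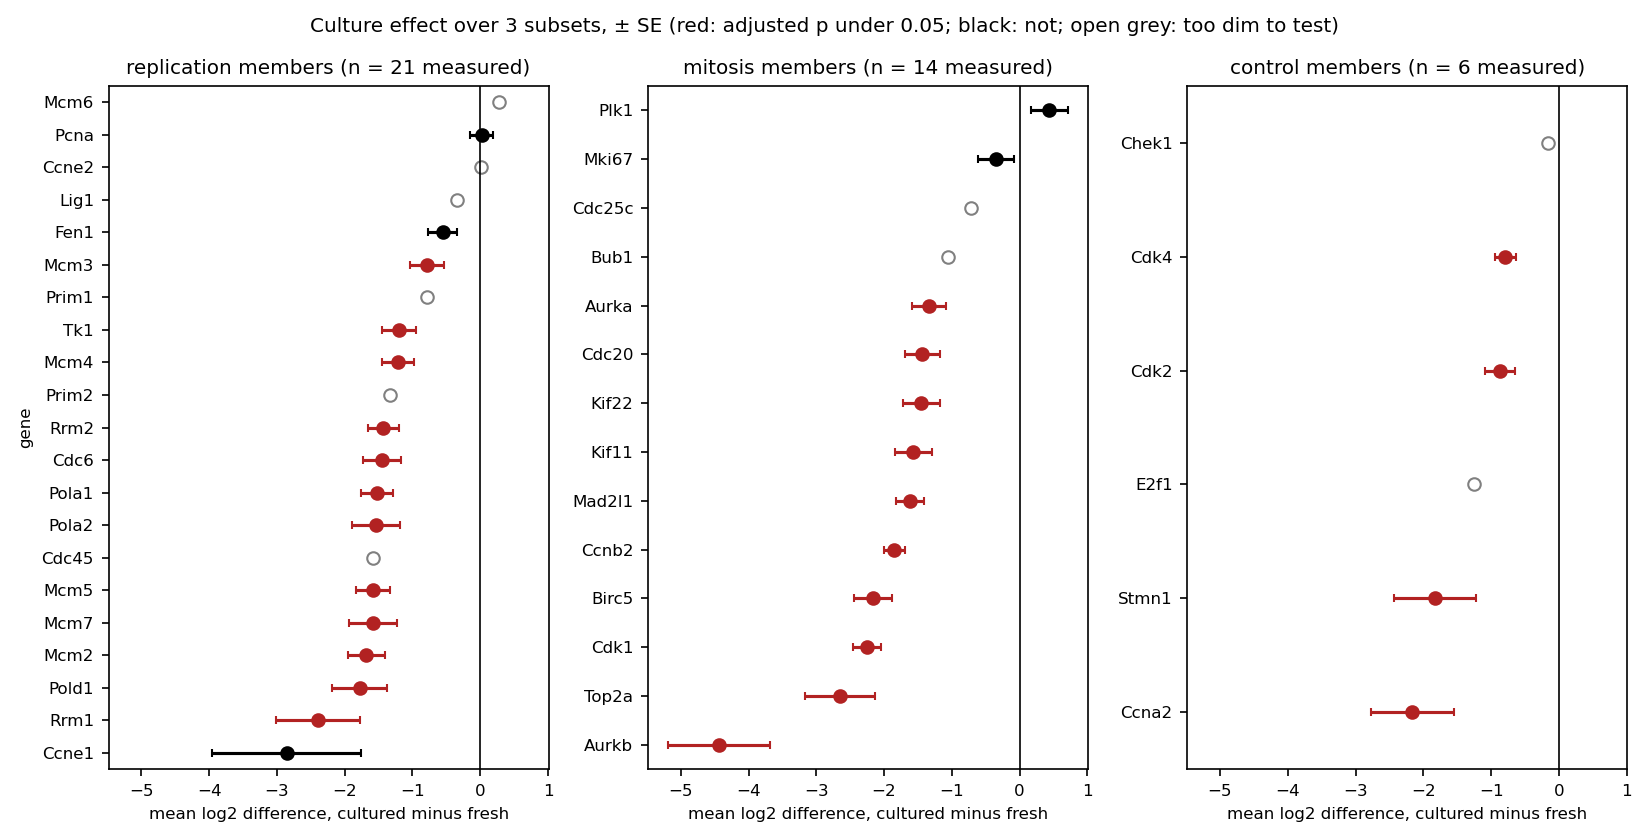
Mean log2 difference (x axis, cultured minus fresh, over the 3 subsets) of each of the 41 measured genes (y axis), in panels for replication, mitosis and control genes; bars are standard errors, red points had an adjusted p under 0.05, black points did not, and open grey points were too dim to test. Red points lie left of 0 in all panels, while Pcna (0.02) and Plk1 (0.44) lie right of it.

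Promoter sequences of the genes that fell together are shown for the 250 bases before the transcription start, from RefSeq on build GRCm38.p6, which held an entry for 38 of the 46 genes. No entry was matched for Mcm4, Prim2, Pole, Ccne2, Cdc25c, Aurkb, Ccna2 and Stmn1. The motifs searched, on both strands, were E2F (TTTCCCGC, TTTCGCGC, TTTGCCGC or TTTGGCGC), CHR (TTTGAA) and the CCAAT box (CCAAT). Capitals mark their matches, which are descriptions and not binding sites. The first group below shows Mcm5 (chr8:75109259-75109508, plus strand), a helicase subunit, Pola1 (chrX:93632156-93632405, minus strand), the catalytic subunit of polymerase alpha, and Cdc6 (chr11:98907901-98908150, plus strand), the origin licensing factor. Each holds an E2F match, and in Mcm5 an overlapping pair on opposite strands begins 153 and 149 bases before the start.
Mcm5: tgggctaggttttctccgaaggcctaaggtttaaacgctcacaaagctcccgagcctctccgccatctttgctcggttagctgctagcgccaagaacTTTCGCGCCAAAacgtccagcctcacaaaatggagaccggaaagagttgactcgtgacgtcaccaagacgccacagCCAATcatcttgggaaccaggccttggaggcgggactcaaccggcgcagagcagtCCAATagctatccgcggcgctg
Pola1: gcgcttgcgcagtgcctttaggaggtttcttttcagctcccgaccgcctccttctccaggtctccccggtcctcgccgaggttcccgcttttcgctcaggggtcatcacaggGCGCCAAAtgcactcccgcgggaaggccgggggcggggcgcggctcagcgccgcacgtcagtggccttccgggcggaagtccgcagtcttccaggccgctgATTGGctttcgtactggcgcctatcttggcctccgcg
Cdc6: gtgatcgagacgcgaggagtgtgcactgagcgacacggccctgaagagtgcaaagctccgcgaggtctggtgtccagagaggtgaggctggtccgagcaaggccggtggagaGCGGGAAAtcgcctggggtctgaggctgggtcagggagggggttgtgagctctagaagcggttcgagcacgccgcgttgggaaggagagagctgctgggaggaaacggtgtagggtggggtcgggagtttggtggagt

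The second group shows the mitosis genes Ccnb2 (chr9:70421555-70421804, minus strand), Cdk1 (chr10:69352913-69353162, minus strand) and Cdc20 (chr4:118437344-118437593, minus strand), which encode cyclin B2, the mitotic kinase it activates, and the activator of the anaphase-promoting complex. Each holds a CHR and CCAAT boxes, and in Cdc20 and Cdk1 a CHR lies 18 and 15 bases before the start.
Ccnb2: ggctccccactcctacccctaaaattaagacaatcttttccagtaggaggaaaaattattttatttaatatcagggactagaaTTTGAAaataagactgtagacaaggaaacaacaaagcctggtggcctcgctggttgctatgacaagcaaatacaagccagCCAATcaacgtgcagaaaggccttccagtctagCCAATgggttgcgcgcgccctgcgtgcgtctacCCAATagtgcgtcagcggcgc
Cdk1: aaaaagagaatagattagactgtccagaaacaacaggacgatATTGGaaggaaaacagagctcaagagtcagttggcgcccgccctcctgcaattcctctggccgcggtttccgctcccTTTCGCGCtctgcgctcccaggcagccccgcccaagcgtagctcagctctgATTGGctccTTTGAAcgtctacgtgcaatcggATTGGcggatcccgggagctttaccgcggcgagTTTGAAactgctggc
Cdc20: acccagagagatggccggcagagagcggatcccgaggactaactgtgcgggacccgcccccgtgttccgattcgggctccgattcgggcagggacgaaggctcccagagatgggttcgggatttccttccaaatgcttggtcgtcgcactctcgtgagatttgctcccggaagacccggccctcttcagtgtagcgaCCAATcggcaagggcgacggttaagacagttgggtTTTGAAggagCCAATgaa

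A gene with several starts counted as matched where any start matched. The shares cover every listed gene with an entry, also genes without a probe set, not tested or not called. E2F matches were found in 5 of 19 replication genes (26.3%: Mcm5, Mcm6, Mcm7, Pola1 and Cdc6) and in 1 of 15 mitosis genes (6.7%: Cdk1), against 2.2% of 27025 genes with a promoter of this length. A CHR was found in 7 of 15 mitosis genes (46.7%: Ccnb2, Cdk1, Cdc20, Top2a, Mki67, Kif11 and Kif22) and in 3 of 19 replication genes (15.8%: Mcm2, Fen1 and Cdc45), against 18.3% of genes. CCAAT boxes were present in 13 of 15 mitosis and 11 of 19 replication genes (86.7% and 57.9%), against 37.5% of genes. Of the 4 control genes with an entry, Cdk2 held an E2F match and none a CHR. Mki67 holds CHR and CCAAT matches and did not pass the test. Mad2l1, Birc5, Tk1, Pola2, Pold1 and Cdk4 fell and hold none of these letters in the window. Mcm2, Mcm3, Rrm1 and Rrm2 also fell and hold no E2F match. The promoter of Pcna (chr2:132253181-132253430, minus strand), whose transcript did not pass the test, holds 1 CCAAT box and neither of the other motifs.
Pcna: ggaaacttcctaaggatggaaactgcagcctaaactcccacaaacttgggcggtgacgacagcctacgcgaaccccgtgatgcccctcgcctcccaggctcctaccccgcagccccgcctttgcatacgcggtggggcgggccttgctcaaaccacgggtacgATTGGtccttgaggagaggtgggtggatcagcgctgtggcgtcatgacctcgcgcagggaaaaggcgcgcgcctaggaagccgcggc

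Among the replication genes, all 5 tested subunits of the MCM helicase fell. Intensities of Mcm5 were 1026 and 1068 in fresh and 129.5 and 290.4 in cultured CD4+ cells, 650.4 and 1194 and then 314 and 518 in CD8+ cells, and 1188 and 908 and then 373 and 526 in DN cells. It fell by 1.58 ± 0.25 on the log2 scale (SE; adjusted p = 0.0007), and all 6 cultured arrays lay under all 6 fresh ones. In CD4+ cells Mcm2 read 219 and 229 fresh and -0.7 and 63.2 cultured, in CD8+ cells 209.9 and 208.5 fresh and 80.7 and 103.5 cultured, and in DN cells 287 and 273 fresh and 98.8 and 102 cultured. For this helicase subunit the difference was -1.68 ± 0.27 (SE; adjusted p = 0.000853), and again no cultured array reached a fresh one. Mcm4 stood at 335 and 342 (CD4+), 173 and 299.8 (CD8+) and 331 and 397 (DN) on the fresh arrays, and at 177 and 152.5, 76.5 and 149 and 151 and 89.2 on the cultured arrays in the same order. Its mean difference was -1.22 ± 0.24 (SE; adjusted p = 0.0024), with replicate 1 of fresh CD8+ cells (172.9) as the lowest fresh array, inside the cultured range.

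For Mcm7 the fresh intensities were 449 and 451 in CD4+, 103 and 389 in CD8+ and 474 and 447 in DN cells, against 55.7 and 119, 150.4 and 183 and 55.6 and 169.9 after culture. The difference was -1.59 ± 0.35 (SE; adjusted p = 0.00494), and the overlap came from replicate 1 of fresh CD8+ cells alone, the other fresh arrays being at 389 or above. Intensities of Mcm3 were 626 and 756 in fresh and 149 and 304 in cultured CD4+ cells, 255 and 601 and then 276 and 379 in CD8+ cells, and 676 and 541 and then 487 and 434 in DN cells. Mcm3 changed least of the called helicase subunits, by -0.78 ± 0.25 (SE; adjusted p = 0.0304). Its call was lost when 1 array was left out, whether either fresh CD4+ array, either fresh DN array, either cultured DN array, replicate 2 of fresh CD8+, or replicate 1 of cultured CD4+ or CD8+ (adjusted p = 0.05 to 0.085), and with no filter on low values (0.0517). Mcm6 was under the floor on every array (1.4 to 67.3). A weaker probe set of Mcm3 also fell (-0.86, adjusted p = 0.00848), whereas the weaker one of Mcm5 did not pass (-0.21, adjusted p = 0.547).

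Subunits of the replicative polymerases fell as well. In CD4+ cells Pola1 read 211 and 241 fresh and 24.9 and 57.3 cultured, in CD8+ cells 105.5 and 124 fresh and 79.9 and 38.1 cultured, and in DN cells 179 and 189 fresh and 54.2 and 62.1 cultured. Every fresh array of this polymerase alpha subunit was above the floor and every cultured one under it (difference -1.52 ± 0.24 SE, adjusted p = 0.000716). Pola2 stood at 169.9 and 159 (CD4+), 73.8 and 158 (CD8+) and 163 and 288 (DN) on the fresh arrays, and at 65.2 and 8.7, 102 and 28.2 and 43.3 and 53.9 on the cultured arrays in the same order. Pola2, the accessory subunit of the same enzyme, differed by -1.54 ± 0.35 (SE; adjusted p = 0.00573). For Pold1 the fresh intensities were 272 and 268 in CD4+, 89.1 and 225 in CD8+ and 327 and 512 in DN cells, against -7.3 and 92.9, 95.7 and 132 and 43.6 and 112 after culture. Pold1, the catalytic subunit of polymerase delta, differed by -1.78 ± 0.41 (SE; adjusted p = 0.00587), with replicate 1 of fresh CD8+ cells under the floor while the other fresh arrays were at 225 to 512. The primase genes Prim1 and Prim2 stayed under the floor throughout, at -4.4 to 90.8 and -23.7 to 75.2.

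Genes of nucleotide supply and of origin licensing followed. Intensities of Rrm2 were 201.5 and 272 in fresh and 56.5 and 61.4 in cultured CD4+ cells, 89.3 and 180 and then 80.5 and 81.0 in CD8+ cells, and 244 and 335 and then 71.1 and 72.4 in DN cells. Rrm2, the small subunit of ribonucleotide reductase, fell to 56.5 to 81 on all cultured arrays, under the floor and under each fresh array (difference -1.43 ± 0.23 SE, adjusted p = 0.000772). In CD4+ cells Rrm1 read 178 and 277 fresh and -61.8 and 60.8 cultured, in CD8+ cells 15.8 and 216 fresh and -4.4 and 3.2 cultured, and in DN cells 131 and 87.1 fresh and 32.4 and -11.6 cultured. The large subunit Rrm1 differed by -2.40 ± 0.61 (SE; adjusted p = 0.0107), a value enlarged by intensities below 0. Tk1 stood at 319 and 451 (CD4+), 208 and 334 (CD8+) and 391 and 205 (DN) on the fresh arrays, and at 159 and 88.7, 120 and 130.1 and 127 and 167 on the cultured arrays in the same order. Tk1, thymidine kinase, differed by -1.20 ± 0.25 (SE; adjusted p = 0.00324) with no overlap between states.

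For Cdc6 the fresh intensities were 104 and 164 in CD4+, 89.0 and 148 in CD8+ and 109.9 and 111 in DN cells, against 13.2 and 34.6, 59.1 and 30.5 and 22.5 and 47.5 after culture. Cdc6 was at 89 to 164 fresh and at 13.2 to 59.1 cultured, close to the floor, and differed by -1.45 ± 0.28 (SE; adjusted p = 0.0023). With intensities under the floor raised to it, its call was lost (adjusted p = 0.0672). Ccne1, cyclin E1, which drives entry into S phase, ran from -57.4 to 198 fresh and from -545.6 to 122 cultured, and its difference of -2.86 ± 1.1 (SE; adjusted p = 0.0598) did not pass the test. Cdc45, a helicase partner, Ccne2, cyclin E2, and Lig1, the ligase that joins Okazaki fragments, were under the floor on every array. A dimmer probe set of Lig1 was above the floor on 3 fresh arrays (at most 140), below 0 on every cultured array, and passed the test (adjusted p = 0.00799).

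The clamp Pcna and the flap endonuclease Fen1 did not pass the test. Intensities of Pcna were 1262 and 1396 in fresh and 1062 and 1612 in cultured CD4+ cells, 1344 and 1221 and then 1183 and 1614 in CD8+ cells, and 1468 and 1309 and then 1114 and 1654 in DN cells. The sliding clamp's mean difference was 0.02 ± 0.17 (SE; adjusted p = 0.938). Cultured values spread by experiment, with 1062 to 1183 in experiment 1 and 1612 to 1654 in experiment 2. In CD4+ cells Fen1 read 238 and 269 fresh and 100.3 and 139.5 cultured, in CD8+ cells 170.2 and 275 fresh and 169 and 283 cultured, and in DN cells 245.5 and 245 fresh and 157.5 and 156 cultured. Fen1 differed by -0.55 ± 0.21 (SE; adjusted p = 0.0576) and missed the threshold. Both genes were above the floor on all 12 arrays.

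**Figure D2:**
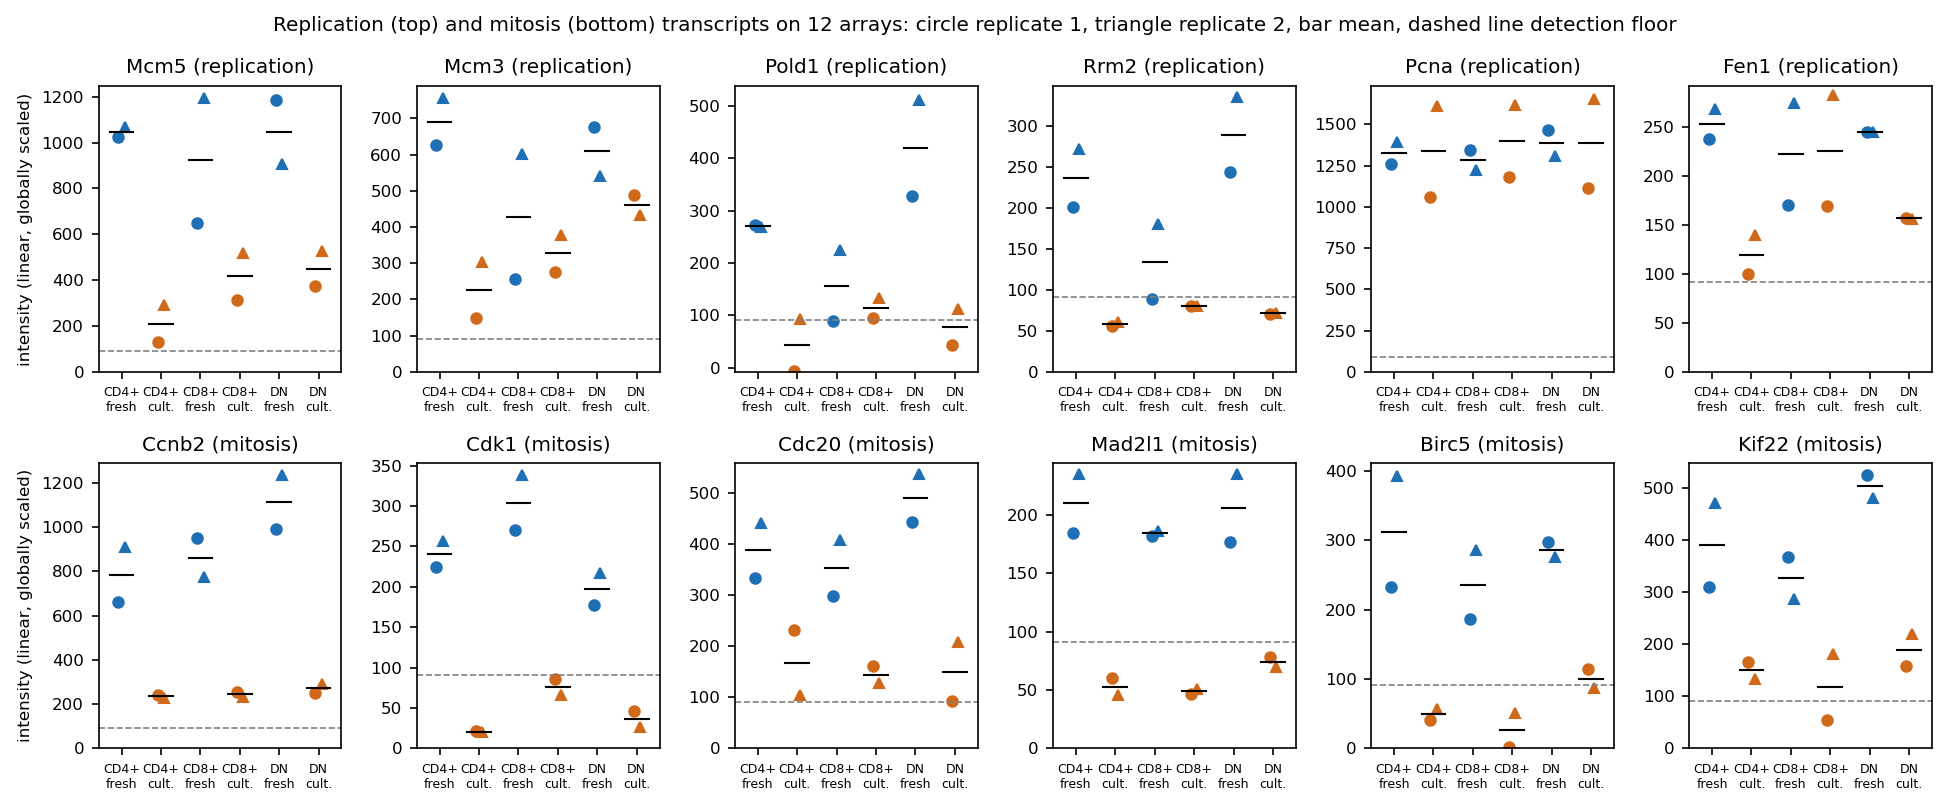
Intensity (y axis, linear scale) of 6 replication genes (top row) and 6 mitosis genes (bottom row) in the 6 groups (x axis); circles are replicate 1, triangles replicate 2, black bars the mean of 2 arrays, blue fresh, orange cultured, and the dashed line the detection floor of 91.37. Ccnb2 and Cdk1 drop in each subset with no overlap, Pcna shows no such drop, and replicate 1 of fresh CD8+ cells lies low for Mcm3, Pold1 and Rrm2.

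Of the mitosis genes, cyclin B2 and its kinase had the lowest adjusted p in the mean culture effect (limma). In CD4+ cells Ccnb2 read 659 and 909.7 fresh and 242 and 228 cultured, in CD8+ cells 949 and 776 fresh and 255 and 232 cultured, and in DN cells 991 and 1235 fresh and 249 and 292.5 cultured. Ccnb2 fell in each subset, 3.27-fold in CD4+, 3.5-fold in CD8+ and 4.07-fold in DN cells (adjusted p = 0.00261, 0.00303 and 0.00159), and its mean difference was -1.85 ± 0.16 (SE; adjusted p = 1.33e-05). Cdk1 stood at 225 and 257 (CD4+), 271 and 338 (CD8+) and 178 and 217 (DN) on the fresh arrays, and at 20.9 and 20.5, 85.5 and 66.6 and 46.3 and 25.8 on the cultured arrays in the same order. Cdk1 was under the floor on all cultured arrays, at least 2.65-fold lower in CD4+, 3.33-fold in CD8+ and 2.18-fold in DN cells, where the bound sets the fresh mean against the floor (mean difference -2.25 ± 0.21 SE, adjusted p = 2.15e-05). For Cdc20 the fresh intensities were 334 and 442 in CD4+, 299 and 408 in CD8+ and 444.5 and 538 in DN cells, against 231.5 and 105, 161 and 128 and 92.2 and 207 after culture. Cdc20 fell by 1.43 ± 0.26 on the log2 scale (SE; adjusted p = 0.00165), and no cultured array reached a fresh one.

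Among the spindle and chromosome genes, Mad2l1, Birc5, Top2a, Kif11, Kif22 and Aurka separated fresh from cultured arrays, while Aurkb, Mki67 and Plk1 overlapped. Intensities of Mad2l1 were 184.5 and 235 in fresh and 59.9 and 45.5 in cultured CD4+ cells, 182 and 186 and then 46.7 and 50.7 in CD8+ cells, and 176 and 235 and then 78.3 and 69.9 in DN cells. Mad2l1, a spindle checkpoint protein, was above the floor on every fresh array and under it on every cultured array (difference -1.61 ± 0.20 SE, adjusted p = 0.000163). In CD4+ cells Birc5 read 232 and 393 fresh and 40.7 and 57.4 cultured, in CD8+ cells 187 and 286 fresh and 1.4 and 50.8 cultured, and in DN cells 298 and 275.5 fresh and 114 and 86.4 cultured. Birc5, survivin, a subunit of the chromosomal passenger complex, differed by -2.17 ± 0.28 (SE; adjusted p = 0.000194), and only replicate 1 of cultured DN cells (114) was still above the floor. Top2a stood at 99.7 and 174.5 (CD4+), 166 and 96.6 (CD8+) and 151 and 171 (DN) on the fresh arrays, and at -105 and 32.2, -24.0 and 6.7 and 46.0 and 17.3 on the cultured arrays in the same order. Top2a, the topoisomerase that untangles sister chromatids, differed by -2.65 ± 0.52 (SE; adjusted p = 0.00232). It was under the floor on every cultured array, with values below 0 that enlarge this difference, and the floor supports only a bound of at least 1.49-fold in CD4+ cells.

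For Kif11 the fresh intensities were 117 and 204 in CD4+, 55.8 and 115 in CD8+ and 159.7 and 138 in DN cells, against 21.5 and 38.1, 14 and 22.7 and 47.0 and 47.8 after culture. Kif11, the spindle motor Eg5, differed by -1.57 ± 0.27 (SE; adjusted p = 0.00122). Intensities of Kif22 were 309 and 471 in fresh and 165 and 134 in cultured CD4+ cells, 368 and 286 and then 54.1 and 181 in CD8+ cells, and 526 and 481 and then 159 and 220.1 in DN cells. Kif22, a chromosome-bound motor also called Kid, differed by -1.45 ± 0.27 (SE; adjusted p = 0.00184), and its probe set is of a design with relaxed selection rules. In CD4+ cells Aurka read 112 and 146 fresh and 24.8 and 38.1 cultured, in CD8+ cells 94.1 and 113 fresh and 53.8 and 35.0 cultured, and in DN cells 110.3 and 82.6 fresh and 20.1 and 30.2 cultured. Aurka, the Aurora kinase of spindle poles, differed by -1.33 ± 0.25 (SE; adjusted p = 0.00191), but lay close to the floor, and its call was lost with low intensities raised to the floor (adjusted p = 0.0621). In all of these the cultured arrays lay under the fresh ones. Bub1, a checkpoint kinase, and Cdc25c, the phosphatase that activates CDK1, were under the floor throughout (at most 90.1 and 57.7).

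Aurkb stood at 197.5 and 159 (CD4+), 171 and 284 (CD8+) and 111 and 289 (DN) on the fresh arrays, and at -388.5 and -81.0, -16.6 and 135 and -342 and -6.6 on the cultured arrays in the same order. Aurkb, the kinase of the passenger complex, fell (adjusted p = 0.00112), with intensities far below 0 after culture, so its log2 difference of -4.43 has no reading as a fold. Against the floor it was at least 1.97-fold lower in CD4+ and 2.01-fold lower in DN cells, while replicate 2 of cultured CD8+ cells (135) remained above the floor. For Mki67 the fresh intensities were 144 and 173 in CD4+, 340.4 and 149.7 in CD8+ and 275 and 388 in DN cells, against 196 and 171.5, 209 and 141 and 259 and 122.5 after culture. Mki67, the gene of the proliferation antigen Ki-67, differed by -0.35 ± 0.27 (SE; adjusted p = 0.321) and its states overlapped.

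Plk1, the polo-like kinase of mitotic entry, was measured by 3 probe sets that disagreed. Intensities of Plk1 were 255 and 161.5 in fresh and 767 and 236 in cultured CD4+ cells, 235 and 178 and then 207 and 199.9 in CD8+ cells, and 273 and 293 and then 314 and 372 in DN cells. That probe set, the brightest, belongs to a design whose probes may also match related transcripts, and it did not pass the test (0.44 ± 0.27 SE, adjusted p = 0.219). Without replicate 2 of cultured CD4+ cells, which leaves the noisiest array alone in its group, it was called higher (0.72, adjusted p = 0.0101). Its highest value came from replicate 1 of cultured CD4+ cells, the array of highest noise. A weaker probe set of the same design, at 24.2 to 227 fresh and 10.1 to 36 cultured, fell (-1.65, adjusted p = 0.00335), and another did not pass (-0.73, adjusted p = 0.0763). The direction of Plk1 therefore depends on the probe set.

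Among the control genes, Cdk4 and Cdk2, kinases of the G1 and S phases, fell. In CD4+ cells Cdk4 read 736 and 826 fresh and 399 and 357 cultured, in CD8+ cells 529.7 and 787 fresh and 457 and 488 cultured, and in DN cells 755 and 744 fresh and 383 and 425 cultured. Cdk4 differed by -0.79 ± 0.15 (SE; adjusted p = 0.00236), with every cultured array under every fresh one and all 12 above the floor. Cdk2 stood at 258.5 and 341 (CD4+), 168 and 171 (CD8+) and 354 and 312 (DN) on the fresh arrays, and at 192 and 98.1, 115 and 90.3 and 220.5 and 152 on the cultured arrays in the same order. Cdk2 differed by -0.87 ± 0.22 (SE; adjusted p = 0.01). Their weaker probe sets gave -1.25 (adjusted p = 0.0265) for Cdk4 and -0.70 (adjusted p = 0.0599) for Cdk2.

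For Ccna2 the fresh intensities were 161 and 187 in CD4+, 185 and 140.4 in CD8+ and 136 and 305 in DN cells, against 199 and 61.6, -117 and 32.7 and -16.2 and 99.3 after culture. Ccna2, cyclin A2, which acts in S phase and in early mitosis, differed by -2.16 ± 0.62 (SE; adjusted p = 0.018), a call lost without fresh DN replicate 2 (adjusted p = 0.0593), cultured DN replicate 1 (0.0517) or the 3 arrays with raised Gapdh ratios (0.094). Intensities of Stmn1 were 992 and 1697 in fresh and 12.1 and 605 in cultured CD4+ cells, 378 and 1262.5 and then 320.1 and 221.5 in CD8+ cells, and 831 and 809 and then 520.5 and 397 in DN cells. Stmn1, a microtubule-destabilising protein abundant in dividing cells, differed by -1.83 ± 0.60 (SE; adjusted p = 0.0335). This call was lost when either fresh DN array, either cultured CD8+ array, either cultured DN array, or replicate 2 of fresh CD4+ or CD8+ was left out (adjusted p = 0.0607 to 0.0953), and with no filter (0.0598). E2f1 had 55.6 to 88.7 fresh and -2.3 to 45.5 cultured, all under the floor, and Chek1, the checkpoint kinase of replication stress, 20.5 to 79.8.

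In 17 of the 41 measured genes all 6 cultured arrays lay under all 6 fresh arrays, and in 0 all lay above. Among the tested probe sets as a whole, 10.1% showed this separation. The 17 were 6 replication genes (Mcm2, Mcm5, Rrm2, Tk1, Pola1 and Cdc6), 9 mitosis genes (Ccnb2, Cdk1, Cdc20, Aurka, Mad2l1, Birc5, Top2a, Kif11 and Kif22) and 2 control genes (Cdk4 and E2f1). In Pola1, Cdk1, Mad2l1 and Top2a the detection floor itself separated the states. That is 6 of 21 measured replication genes and 9 of 14 measured mitosis genes, counts given without a test.

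Within single subsets the replication and mitosis genes were compared next. In CD4+ cells 18 of 31 tested genes fell (9 replication, 8 mitosis, 1 control), against 10.9% of all probe sets. The median over the measured genes was -1.82 for replication and -1.66 for mitosis, and -1.05 and -0.86 with low intensities raised to the floor. Both cultured arrays lay under both fresh arrays in 31 of the 41 genes, where 34.0% of tested probe sets did so. With the experiment number as a block, limma called 12 replication, 9 mitosis and 3 control genes in CD4+ cells. Of the helicase genes, Mcm5 was 5.3-fold lower (adjusted p = 0.00427), beside Mcm3 at 3.19-fold (0.0238). Mcm7 also fell (adjusted p = 0.0239), with only 1 of 2 cultured arrays above the floor and so no exact fold. For Ccnb2 and Cdk1 the adjusted p in CD4+ cells reached 0.0508 and 0.0425 under the alternatives. For the helicase genes it reached 0.0522 for Mcm5, 0.124 for Mcm7 and 0.151 for Mcm3. Leaving out fresh CD4+ replicate 1 gave 8 calls, leaving out replicate 2 gave 3, and a fit of these 4 arrays alone gave 1.

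In DN cells 9 of 31 fell (4 replication, 5 mitosis), against 5.7% of all probe sets, with medians of -1.34 and -1.42 (-0.60 and -0.92 with low intensities raised to the floor). Both cultured arrays lay under both fresh arrays in 35 of 41 genes (31.7% of tested probe sets). Rrm2 (at least 3.15-fold lower, adjusted p = 0.0151), Mcm4 (adjusted p = 0.034), Mcm7 (0.0498) and Pola1 (at least 2.05-fold, 0.044) were the replication genes called. Mcm4 and Mcm7 were above the floor on 1 of 2 cultured DN arrays, so no exact fold is given. The mitosis genes were Ccnb2, Cdk1, Cdc20 (3.42-fold, 0.0317), Mad2l1 (at least 2.26-fold, 0.0334) and Aurkb. For Ccnb2 the highest adjusted p over the alternatives was 0.0314 and for Cdk1 0.0838. With the experiment number as a block 16 passed, and 20 did when only the DN arrays were fitted. Leaving out either fresh CD4+ array gave 3 calls and either cultured CD4+ array 16. Leaving out a fresh DN array gave 2 (replicate 1) or 1 (replicate 2), a cultured DN array 2 or 5, and no filter 3.

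In CD8+ cells 4 of 31 fell, all of them mitosis genes, against 4.12% of all probe sets: Ccnb2, Birc5 (at least 2.56-fold, adjusted p = 0.00789), Cdk1 and Mad2l1 (at least 2.04-fold, 0.0145). Of 15 tested replication genes limma called 0, with 5 at an unadjusted p under 0.05 (Mcm5, Mcm4, Tk1, Cdc6 and Mcm2), all lower, where 23.5% of all probe sets had such a p in either direction. The median over measured genes was -0.61 for replication and -1.55 for mitosis, and -0.28 and -0.73 with low intensities raised to the floor. Both cultured arrays lay under both fresh arrays in 26 of 41 genes (29.4% of tested probe sets). With the experiment number as a block, limma called 5 mitosis genes, 1 control gene and 0 replication genes in CD8+ cells. Mcm5 differed by -1.12 ± 0.43 (SE; adjusted p = 0.144), Mcm7 by -0.28 ± 0.61 (SE; adjusted p = 0.828) and Mcm3 by -0.28 ± 0.43 (SE; adjusted p = 0.757). Over the alternatives the highest adjusted p was 0.0321 for Ccnb2, 0.0854 for Birc5, 0.0772 for Cdk1 and 0.113 for Mad2l1. The count of called genes was 8 without either cultured CD4+ array and 1 without cultured CD8+ replicate 1.

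**Figure D3:**
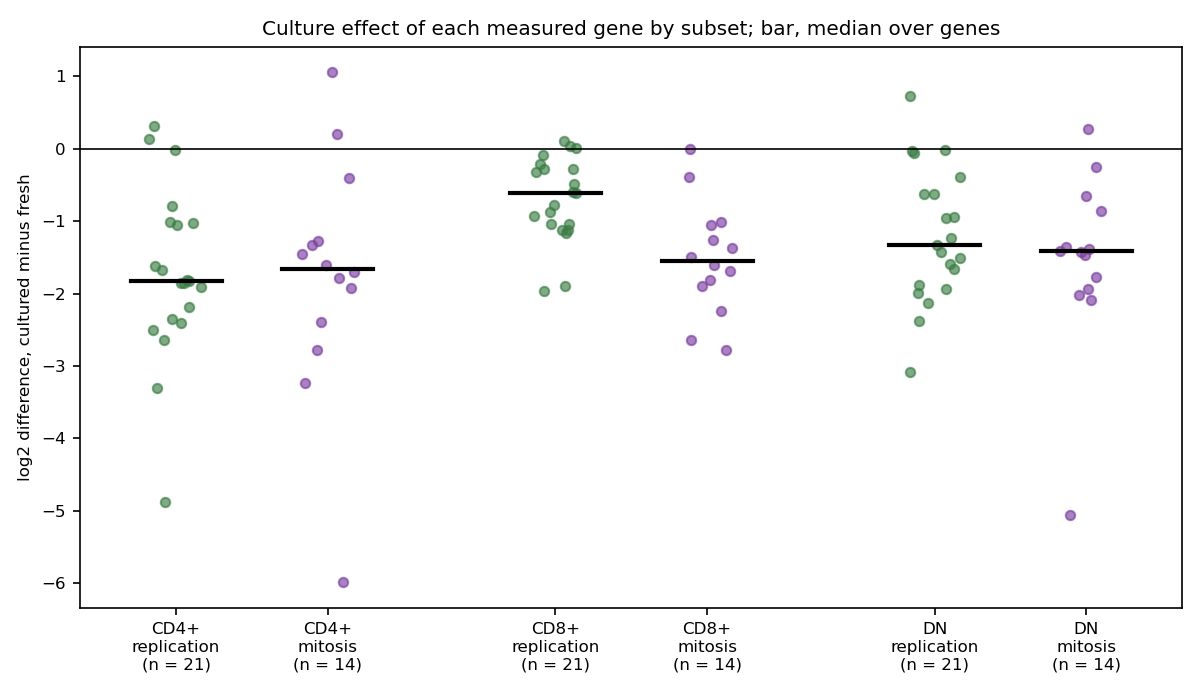
Log2 difference (y axis, cultured minus fresh) of each measured gene in each subset (x axis), for 21 replication genes (green) and 14 mitosis genes (purple), with black bars at the medians. The medians are -1.82 and -1.66 in CD4+, -0.61 and -1.55 in CD8+ and -1.34 and -1.42 in DN cells.

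The median replication difference in CD8+ cells moved with replicate 1 of fresh CD8+ cells, the array with the Gapdh ratio of 2.55 and an actin ratio of 0.908. Its median over the replication genes was 6.57 on the log2 scale, where the other fresh arrays had 7.51 to 7.93. For the mitosis genes it had 7.55, inside the range of 7.49 to 8.0 of the other fresh arrays. Among tested replication genes it was the lowest fresh array for 11 of 15, among tested mitosis genes for 3 of 12, and among all tested probe sets for 25.8%. Without this array the replication median in CD8+ cells was -1.08, and without replicate 2 it was -0.28, while the mitosis median was -1.58 and -1.59. A fit without this array alone leaves 1 fresh CD8+ array and is less precise, so its calls cannot show whether the array mattered. Replicate 1 of cultured CD8+ cells had the highest replication median of the cultured arrays (6.43, the others 5.27 to 6.12), with a Gapdh ratio of 0.916. Without it the CD8+ medians were -0.60 for replication and -1.28 for mitosis, and without cultured replicate 2 they were -0.54 and -1.71. When all 3 arrays with a raised Gapdh ratio were dropped, 13 genes were called in CD8+ cells, 5 replication, 7 mitosis and 1 control. The part of RNA integrity in these values was not tested.

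**Figure D4:**
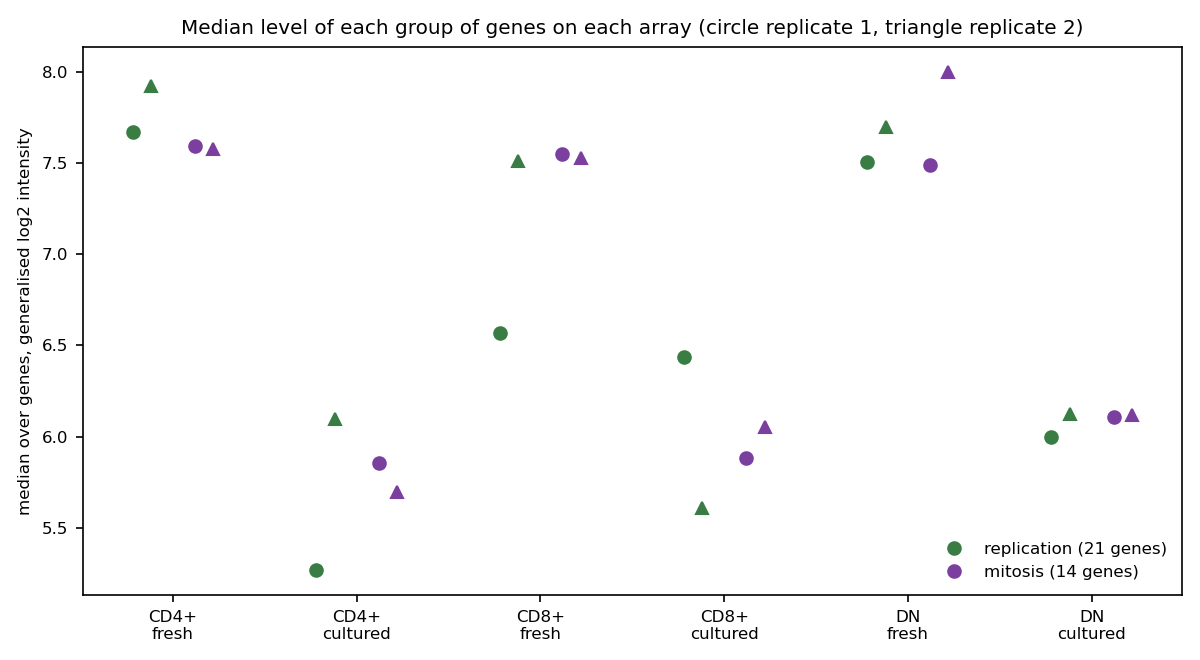
Median generalised log2 intensity (y axis) of the 21 replication genes (green) and the 14 mitosis genes (purple) on each array of the 6 groups (x axis), circles replicate 1 and triangles replicate 2. Each list is to be read across arrays: replication stands at 6.57 on replicate 1 of fresh CD8+ cells and at 7.51 or more on the other fresh arrays, cultured CD8+ replicate 1 is the highest cultured array at 6.43, and the mitosis medians of all fresh arrays lie at 7.49 or above.

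Fresh and cultured arrays of a subset were also paired by experiment number, though the labels do not say what such arrays share. Within these pairs the replication median was -1.77 and -1.71 in CD4+ cells, -0.18 and -1.07 in CD8+ cells and -1.54 and -1.33 in DN cells (experiments 1 and 2). The mitosis median was -1.48 and -2.0 in CD4+, -1.63 and -1.49 in CD8+ and -1.51 and -1.48 in DN cells. Each of the 14 mitosis genes was lower after culture in experiment 1 of CD8+ cells, and 11 to 13 of 14 in the other pairs of arrays. For the replication genes this held for 14 of 21 in experiment 1 of CD8+ cells and for 17 to 19 in the others.

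The difference in culture effect between subsets was tested directly. Limma called 0 of 31 genes between CD8+ and CD4+ cells, 0 between CD8+ and DN cells and 0 between DN and CD4+ cells, as in 0% of all probe sets in each. At an unadjusted p under 0.05 there were 4, 1 and 0 genes, where all probe sets gave 8.52%, 4.06% and 2.06%. The 4 were replication genes with a smaller drop in CD8+ than in CD4+ cells: Mcm7 (2.07 ± 0.86 SE, adjusted p = 0.586), Pold1, Mcm3 and Pola1. Over the measured replication genes the median difference in culture effect between CD8+ and CD4+ cells was 1.12. It was 0.63 without fresh CD8+ replicate 1, 1.46 without replicate 2 and 0.28 without the 3 arrays of raised Gapdh ratio. Mitosis genes had 0.06, and 0.06, 0.1 and 0.06 in that order. For Ccnb2 this difference was -0.10 ± 0.39 (SE; adjusted p = 0.943). Without cultured CD4+ replicate 2, 3 genes (Stmn1, Mcm2 and Pold1) were called between CD8+ and CD4+ cells and 1 (Stmn1) between DN and CD4+ cells, a fit that leaves the noisiest array alone in its group.

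Between fresh subsets limma passed no tested gene. It called 0 of 31 between CD8+ and CD4+ cells (1.98% of all probe sets), 0 between CD8+ and DN cells (1.43%) and 0 between DN and CD4+ cells (0%). At an unadjusted p under 0.05 there were 1 (Pola1), 2 (Rrm2 and Cdk2) and 1 (Mki67) of the 31, where all probe sets gave 11.1%, 9.47% and 1.32%. In fresh CD8+ against CD4+ cells, Ccnb2 differed by 0.15 ± 0.28 (SE; adjusted p = 0.969), Cdk1 by 0.33 ± 0.36 (SE; adjusted p = 0.92) and Mcm5 by -0.25 ± 0.43 (SE; adjusted p = 0.966). Pola1 stood at 106 and 124 in CD8+ against 211 and 241 in CD4+ cells (-0.94 ± 0.42 SE, adjusted p = 0.427). It was called with low intensities raised to the floor, a setting that left these fresh values as they were. That setting gave every cultured array of Pola1 the same value and so took their spread out of the fit. Replication genes had a median of -0.53 in this comparison, -0.12 without fresh CD8+ replicate 1 and -0.95 without replicate 2. Mitosis genes had -0.10, and -0.13 and -0.05.

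Cultured subsets gave the same counts. Of the 31 genes, 0 were called between cultured CD8+ and CD4+ cells (2.29% of all probe sets), 0 between CD8+ and DN cells (1.3%) and 0 between DN and CD4+ cells (0%), with 7, 3 and 3 at an unadjusted p under 0.05, where all probe sets gave 15.3%, 10.5% and 3.82%. Cdk1, at 85.5 and 66.6 in cultured CD8+ and 20.9 and 20.5 in cultured CD4+ cells, had the lowest adjusted p of the first comparison (0.133), with all 4 values under the floor. Ccnb2 lay at 228.0 to 292.5 on all 6 cultured arrays. With the experiment number as a block Aurkb was called higher in cultured CD8+ than in CD4+ cells. Without cultured CD4+ replicate 2, 5 genes (Mcm2, Stmn1, Plk1, Pold1 and Mcm5) were called between CD8+ and CD4+ cells and 3 (Stmn1, Mcm2 and Top2a) between DN and CD4+ cells.

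Other genes of the same pathways, from a wider list chosen with earlier results known, mostly fell where they passed the test after culture. Of 37 further replication genes measured 21 were tested, and 10 fell and 2 rose, beside the 22.3% lower and 17% higher among all tested probe sets. Of 39 further mitosis genes 31 were tested, and 17 fell and 1 rose. Of 20 further control genes 14 were tested, and 10 fell and 0 rose. The medians over all measured genes of these lists were -0.48, -0.79 and -1.02, and 0, -0.21 and -0.06 with low intensities raised to the floor, closer to 0 than those of the replication and mitosis genes above. Rpa1 and Rpa3, subunits of the protein that coats single-stranded DNA, differed by -2.55 ± 0.27 (SE; adjusted p = 5.06e-05) and -2.42 ± 0.33 (SE; adjusted p = 0.00028), and the clamp loader subunits Rfc1 and Rfc5 by -1.88 ± 0.24 (SE; adjusted p = 0.000173) and -1.47 ± 0.19 (SE; adjusted p = 0.00022). Rpa1 was at 370.9 to 601.4 fresh and 25.3 to 226.8 cultured, so its states did not overlap. Rpa3 was under the floor on every cultured array (-23.7 to 34.0), so its log2 difference is set by values near and below 0, and only bounds hold, at least 1.21-fold lower in CD4+, 1.54-fold in CD8+ and 1.7-fold in DN cells. Rfc1 was also under the floor on every cultured array (9.9 to 52.0).

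Kif23, a motor of cytokinesis, was at 418.2 to 685.6 fresh and 48.8 to 136.7 cultured (-2.55 ± 0.23 SE, adjusted p = 1.66e-05). Cks1b, which binds cyclin-dependent kinases, differed by -1.79 ± 0.25 (SE; adjusted p = 0.000333), the motor Kif20a by -2.02 ± 0.28 (SE; adjusted p = 0.000341) and the spindle protein Nusap1 by -1.76 ± 0.30 (SE; adjusted p = 0.00112). In the control list Ccnd3, cyclin D3, was at 341.1 to 459.9 fresh and 48.3 to 139.4 cultured (-1.97 ± 0.19 SE, adjusted p = 3.10e-05). Ccnd1, cyclin D1, differed by -1.07 ± 0.17 (SE; adjusted p = 0.0007) over the subsets. Limma called it lower in CD4+ (3.88-fold, adjusted p = 0.00172) and DN cells (2.4-fold, 0.0212). It was not called in CD8+ cells, at 470 and 783 fresh and 631.0 and 600.3 cultured. The repressor E2f8 differed by -1.82 ± 0.29 (SE; adjusted p = 0.000722) and the pocket protein Rbl1 by -2.40 ± 0.38 (SE; adjusted p = 0.000755). Kif20a, Nusap1, E2f8 and Rbl1 were under the floor on every cultured array, so these log2 differences are not measured folds. Fresh CD8+ cells had less Ccnd1 (470 and 783) than fresh CD4+ cells (2451 and 2461; -2.02 ± 0.29 SE, adjusted p = 0.00426). They also had less than fresh DN cells (2117 and 1561; -1.58 ± 0.29 SE, adjusted p = 0.0208).

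Top1, a topoisomerase used in transcription as well as in replication, rose, from 313.6 to 888.5 fresh to 1147.5 to 2498.3 cultured (1.92 ± 0.22 SE, adjusted p = 7.80e-05). Orc5, a subunit of the origin recognition complex, rose by 1.30 ± 0.39 (SE; adjusted p = 0.0221), with levels of 13.2 to 152.4 fresh and 64.6 to 247.4 cultured around the floor. Cenpa, the centromeric histone, rose by 0.59 ± 0.18 (SE; adjusted p = 0.0254), with levels of 201.9 to 314.6 fresh and 265.3 to 479.2 cultured.

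Marker lists of other cell types were summed per array, counting values below 0 as 0. The summed level of 9 measured B cell markers, 8 of them above the floor on some array, was 2704 to 5224 on fresh and 1505 to 4151 on cultured arrays, with Cr2 never above the floor (at most 25.8). Ighm (1264 to 3965 fresh, 614 to 3067 cultured) and Cd22 (-2.8 to 863, and below 0 on every cultured array) ranged lower, while Pax5 (108 to 199 fresh, 187 to 479 cultured) and Blk (41.4 to 212, and 54.0 to 482) ranged higher and Ms4a1 overlapped (174 to 696, and 145 to 413). The sum of 6 haematopoietic progenitor markers was 2349 to 4025 fresh and 1435 to 2719 cultured, the brightest being Kit and Flt3, which dendritic cells also express, while Cd34, Gata2 and Hoxa9 were never above the floor. The 7 erythroid markers gave 874 to 2020 fresh and 1097 to 4268 cultured, with Alas2, Epor and Slc4a1 never above it. The 9 macrophage markers gave 1690 to 3997 and 1133 to 1900, and the 5 plasma cell markers 894 to 1288 and 1060 to 3657. Of the plasma cell markers, Irf4 was also listed as a marker of CD8-negative dendritic cells. It was at 47.2 to 625.1 fresh and 138.7 to 2694.5 cultured. Prdm1 and Xbp1 also ranged higher after culture, while Sdc1 was above the floor on 1 array and Jchain on 5. Sums of 8 neutrophil markers were 112 to 433 and 175 to 788, of 4 NK cell markers 142 to 1144 and 153 to 1088, of 4 plasmacytoid markers 264 to 550.2 and 305 to 694, and of 7 T cell markers 103 to 291 and 156 to 472. Never above the floor were Ncr1 and Gzmb of the NK cell list, Marco and Cd5l of the macrophage list, Ccr9 and Cox6a2 of the plasmacytoid list, and Ly6g, S100a9, Mpo, Ltf and Ngp of the neutrophil list. Above it on all 12 arrays were Klrd1 of the NK cell list (at most 1108.6) and Csf1r and Cd68 of the macrophage list (822.5 and 1782.2). So were Hba-a1, Klf1 and Tfrc of the erythroid list (at most 2468.8, 461.8 and 1143.8). Camp of the neutrophil list was above it on 7 arrays (at most 337.4) and Myb of the progenitor list on 6 (345.4). The part of these cell types in the fall of the replication and mitosis genes was not tested. The dendritic cell markers summed to 23314 to 39829 fresh and to 56784 to 78102 cultured. H2-Aa, H2-Ab1, Cd74, Cd83 and Ccr7 of this list ranged higher after culture. Itgax (1449.9 to 3209.8 fresh, 874.5 to 2374.4 cultured), Flt3 (1616.8 to 3103.4, and 613.1 to 1932.0) and Ciita (256.2 to 1284.3, and 188.2 to 521.3) ranged lower.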

How the data were processed

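Values are Average Difference intensities from oligonucleotide arrays, to which the authors applied global scaling, per the labels; no software is named in them. The deposited intensity table (12488 probe sets, 66 of them controls left out) was used without further normalization. Of the other 12422, the platform annotation gave 1 symbol to 10833, several to 396 and none to 1193. Because a log of values below 0 does not exist, each intensity x became the log2 of the mean of x and the square root of x² + c². The offset c, 45.69, is the typical noise of the 12 arrays (median over the arrays of the root mean square of their negative values). Differences of dim probe sets are understated on it, and values below 0 can inflate them. The detection floor is 2 times c. Probe sets above it on at least 2 of 12 arrays (6159) were tested in R 4.3.3 by limma 3.58.1, fitting all arrays with a mean for each group (6 residual degrees of freedom), eBayes with trend and robust estimation, and Benjamini-Hochberg adjustment over all 6159. Called means an adjusted p under 0.05. A fold written "at least" sets the bright group's log mean against the floor, or the dim value where higher, in a group with both arrays under the floor. The number of arrays, 2 per group, limits the precision. Tables were prepared in Python 3.11.15 (pandas 2.3.3; numpy 2.4.6) and figures drawn by matplotlib 3.10.9. The fit was tested on simulated data with independent normal noise. These held neither a shared deviation of arrays by experiment number nor the higher noise of cultured arrays.

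The members and gene lists were chosen with earlier results of these data known, so lists are described by counts and medians and not tested. Named with all values were members called in any of 13 contrasts, those above the floor on all arrays, and the brightest of each role; of the wider list, at most 4 genes of lowest p per list, direction and contrast could be named. Alternatives were the offset, a hard floor, quantile normalization, the filter, the groups fitted, the probe set rule, leaving out arrays, and the experiment number as a block. Arrays of the same experiment number deviated together from their group means in all 15 pairs of groups (r = 0.106 to 0.444). The number, given in the labels' titles, paired arrays for the medians within experiments and as a block among the alternatives. The main fit had no block, so its standard errors, p-values and calls leave this pairing out. Replicate 1 had the higher noise in each of the 6 groups, and what the number stands for was not tested.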

Additional observations from a re-analysis of the deposited data

How the results depend on the processing

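Over the 3 subsets together, the count of genes called after culture was 26, and 21 to 27 under the other settings that kept all arrays. It was 23 to 29 when 1 array was left out, 28 of the 29 lower and 1 (Plk1) higher, without cultured CD4+ replicate 2. Of the 26, 21 were called under every alternative in which they were tested, and none changed direction. With only the groups compared, 1 gene was called in CD4+ and 20 in DN cells, and 13 in CD8+ cells once the 3 arrays with raised Gapdh ratios were dropped. In DN cells 3 were called with no filter. With low values raised to the floor, Pola1 was the 1 gene called between fresh CD8+ and CD4+ cells, and its cultured arrays then had no spread. Leaving out each array gave 3 to 22 calls in CD4+, 1 to 8 in CD8+ and 1 to 16 in DN cells, 0 to 5 between cultured CD8+ and CD4+ cells, 0 to 3 between cultured DN and CD4+ cells, and for the difference in culture effect 0 to 3 (CD8+ against CD4+) and 0 to 1 (DN against CD4+). The replicate block gave 24, 6 and 16 calls in CD4+, CD8+ and DN cells, 27 over the subsets, and 1 (Aurkb) between cultured CD8+ and CD4+ cells, and it gave 0 in the other comparisons. The causes were not tested. Where the fit leaves 1 array in a group, that array is assumed to vary like the other groups. Genes near the floor of 91.37 carry only bounds after culture.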
